A study of Arabidopsis thaliana and Nicotiana benthamiana and Solanum lycopersicum with 20 samples.

Results

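The Arabidopsis genes LHCB3 (AT5G54270), LHCB4.1 (AT5G01530), LHCB4.2 (AT3G08940), LHCB4.3 (AT2G40100), LHCB5 (AT4G10340), LHCB6 (AT1G15820) and LHCB7 (AT1G76570) were examined for binding by the transcription factors (TFs) GLK1 and GLK2. They are 7 of the 27444 nuclear protein-coding genes of the TAIR10 annotation, and are all genes with these family names, whatever their values. For each gene, the ChIP-seq summits from 1.5 kb upstream of its start to 500 bp inside it were collected. A summit is the point of highest enrichment within a called region. The series as used here holds 20 ChIP-seq libraries from leaves or leaf cells of several species, of which the 4 Arabidopsis libraries are used here. They are replicates 1 and 2 for GLK1 and replicates 1 and 2 for GLK2. In each, the TF cDNA carried a C-terminal GFP tag and had been transformed, in the vector pK7FWG2, into the same glk1/glk2 double mutant (N9807), so both native genes were mutated in every plant used. GLK1 (AT2G20570) libraries came from plants with the GLK1-GFP construct and GLK2 (AT5G44190) libraries from plants with the GLK2-GFP construct, in both cases from a line selected for high protein expression. Chromatin of fully expanded leaves was pulled down with an anti-GFP antibody. Replicates came from separate plants, and GLK1 and GLK2 from separate lines, so a difference between the TFs and a difference between the lines cannot be told apart. The series text gives transient expression for all species, whereas the methods give transgenic Arabidopsis plants.

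LHCB genes encode the chlorophyll a/b binding proteins of the antenna of photosystem II, which pass light energy to the reaction centre. LHCB4 (CP29), LHCB5 (CP26) and LHCB6 (CP24) are the minor antenna proteins, single subunits that link the core to the outer trimers. LHCB3 is a subunit of those trimers together with LHCB1 and LHCB2. LHCB4 has 3 gene copies in Arabidopsis, of which LHCB4.3 differs most from the others, and LHCB7 is a rarely expressed relative. GLK1 and GLK2 are GARP-family TFs that activate nuclear genes for chlorophyll synthesis and light harvesting in leaves.

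The lists held 15576 and 13934 summits for GLK1 and 22900 and 22143 for GLK2. The weakest summit of each list had a −log10 q of between 1.301 and 1.302, and the number of reads behind a single list is unknown, since the methods give only a range for the species. All fold changes over the control are the values the authors deposited. As a check of the labels, summits inside the GLK2 gene itself were found in both GLK2 libraries (highest fold changes of 4.07 and 3.72) and in neither GLK1 library. The GLK1 gene held summits in all 4, with 3.98 and 2.47 in the GLK1 libraries and 2.15 and 2.01 in the GLK2 libraries, and reads of the transgene and of the native gene cannot be told apart there. No RNA was measured in these libraries, so the leaf label was not checked against marker genes.

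The sequences under the summits are shown first, because the members differ in them. GLKs recognise a GATT core. The motif searched, on both strands, was A or G, then GATT, then 2 letters that are each C or T, and is called the full motif below. A second search dropped the first A or G. The 30 bases below are those of the 4 genes whose element lies at or inside the gene start. Capitals mark the full motif closest to the mean position of the 4 strongest summits or, in LHCB3 and LHCB4.2, which have no full motif there, the closest match of the second search. They are given 5′ to 3′ on the strand of the gene. In LHCB5 and LHCB6 the match lies on the opposite strand, so the capitals show its reverse complement.
LHCB3 (chr5:22038273-22038302, plus strand): atatcccatctctGATTCTcccacctctct
LHCB4.2 (chr3:2717544-2717573, plus strand): tatagataaggctGATTTTgtttcctaccg
LHCB5 (chr4:6408069-6408098, plus strand): ccagaccaatcAAAATCCtgaacgaatcct
LHCB6 (chr1:5447840-5447869, minus strand): ctaattggtcaGAAATCTatccacgacagc
By the second search, whose matches include those of the full motif, the middle of the nearest GATT core lay 3 bp from the mean summit position in LHCB3, 5 bp from it in LHCB4.2, 6 bp in LHCB6 and 30 bp in LHCB5. The full motif shown for LHCB5 is farther, at 65 bp. In the other members with a summit in every library, the nearest core lay at 36 bp (LHCB4.1) and 47 bp (LHCB4.3). The 4 summits of LHCB4.3 spanned 174 bp, so their mean position is not a site common to the libraries. Distances to the nearest core were not measured over all genes. In LHCB3 and LHCB4.2 the match lacks the leading A or G. Coordinates are those of the TAIR10 chromosomes.

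The 3 LHCB4 copies can be compared by the 100 bases just upstream of their starts. Capitals mark the full motif and CACGTG, the G-box, a word bound by light-responsive bZIP and bHLH factors.
LHCB4.1 (chr5:208766-208865, plus strand): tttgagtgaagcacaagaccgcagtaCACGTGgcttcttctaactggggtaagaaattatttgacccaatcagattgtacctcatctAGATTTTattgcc
LHCB4.2 (chr3:2717457-2717556, plus strand): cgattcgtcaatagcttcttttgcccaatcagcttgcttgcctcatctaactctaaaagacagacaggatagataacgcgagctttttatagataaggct
LHCB4.3 (chr2:16745528-16745627, plus strand): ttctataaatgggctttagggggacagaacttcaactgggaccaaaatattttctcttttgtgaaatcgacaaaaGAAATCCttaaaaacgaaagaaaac
LHCB4.1 and LHCB4.2 shared the words CCCAATCAG and CCTCATCTA, in the same order and orientation. They begin 36 and 21 bp upstream of the start in LHCB4.1 and 77 and 60 bp upstream in LHCB4.2. On the strand of the gene, the first word occurs in the 100 bases upstream of 9 of the 27444 genes and the second in 10. LHCB4.3 shared no word of 8 or more letters with either copy. Its full motif, on the opposite strand, begins 25 bp upstream of the start. The shared words were looked for after the fold changes were known.

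Of the 7 genes, 6 had a summit in all 4 libraries, against 23.0% of all genes, and 5 of them (LHCB3, LHCB4.1, LHCB4.2, LHCB5 and LHCB6) were strongly bound by both TFs. In single libraries, a summit in the window was found at 29.5% and 27.2% of genes for GLK1 and at 41.6% and 40.3% for GLK2. The strongest summits of these 5 genes had fold changes between 26.8 and 81.8, and all ranked within the first 76 of their list. They were in the top 1% of all 4 lists, as were 128 genes in all, or 0.466%. The top 1% was chosen after the ranks were seen. LHCB4.3 had weak summits and LHCB7 had none for GLK1.

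**Figure D1:**
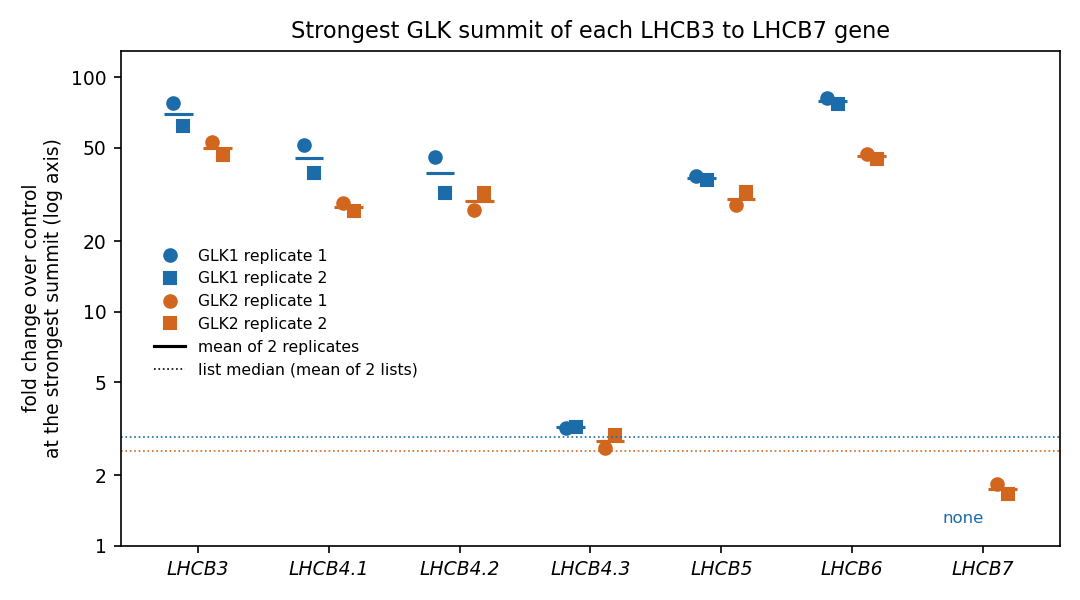
Fold change over the control at the strongest summit in the window of each gene (log axis), for GLK1 (blue) and GLK2 (orange), replicate 1 as circles and replicate 2 as squares. Short lines are means of 2 replicates and dotted lines the mean of the 2 list medians of each TF. LHCB4.3 and LHCB7 sit near or below the list medians, the other 5 genes at 26.8 or more.

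LHCB6, on chromosome 1 (5446462 to 5447880, minus strand), encodes the CP24 protein. Its strongest summit reached 81.8-fold and 76.7-fold over the control in the GLK1 replicates and 47.3-fold and 44.97-fold in the GLK2 replicates. These are ranks 22 and 16 for GLK1 and 25 and 24 for GLK2. The TFs did not overlap, both GLK1 values being above both GLK2 values. The summits lay 13 to 25 bp inside the gene, in the 5′UTR, and no other summit was called in the window. The same summits lie 193 to 205 bp upstream of AT1G15830, a gene for an uncharacterized protein on the opposite strand, so the peak cannot be assigned to one of the pair from its position. The 150 bases upstream of LHCB6 are shown because they hold the G-box that lies between the pair, in capitals.
LHCB6 upstream (chr1:5447881-5448030, minus strand): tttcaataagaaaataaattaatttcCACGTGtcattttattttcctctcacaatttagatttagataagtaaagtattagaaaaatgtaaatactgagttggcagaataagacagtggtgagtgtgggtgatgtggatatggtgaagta
It begins 124 bp upstream of the LHCB6 start, outside the 150 bp summit windows of LHCB6. The gene also has 3 full motifs within the first 100 bp, beginning 22, 46 and 59 bp inside it.

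LHCB3, on chromosome 5 (22038165 to 22039568, plus strand), encodes the trimer subunit. Its strongest summit reached 77.7-fold and 61.9-fold for GLK1, and 53.0-fold and 46.9-fold for GLK2. The ranks were 26 and 29 for GLK1 and 19 and 21 for GLK2. So GLK1 had the higher fold changes, with no overlap, and GLK2 the better ranks. The summits lay 114 to 140 bp inside the gene, in a 5′UTR of 259 bp, deeper than in any other strongly bound member. A second summit was called 131 bp upstream of the start in GLK1 replicate 1 (17.5) and 134 bp upstream in GLK2 replicate 1 (17.3), and in neither replicate 2. GLK1 replicate 2 had a weak summit 701 bp upstream (2.53).

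LHCB4.1, on chromosome 5 (208866 to 210548, plus strand), encodes one form of CP29. Its fold changes were 51.6 and 38.9 for GLK1 and 28.96 and 26.8 for GLK2, at ranks 45 and 56 and ranks 65 and 73. Both GLK1 values were above both GLK2 values. Its 4 summits fell 23 to 29 bp inside the gene, a span of 6 bp that was the narrowest of the members. A weak summit was called 499 bp upstream in GLK1 replicate 1 alone (2.51).

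LHCB4.2, on chromosome 3 (2717557 to 2718923, plus strand), encodes the other main form of CP29. Its fold changes were 45.8 and 32.2 for GLK1 and 27.1 and 32.1 for GLK2. The lower GLK1 and the higher GLK2 value were almost equal. The ranks were 60 and 75 for GLK1 and 71 and 50 for GLK2. The summits straddled the start, from 12 bp upstream to 8 bp inside, and no second summit was called.

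LHCB4.3, on chromosome 2 (16745628 to 16747424, plus strand), reached only 3.18-fold and 3.22-fold for GLK1, and 2.62-fold and 2.98-fold for GLK2. The medians of the 4 lists were 3.04, 2.76, 2.57 and 2.51, so the summits of this copy were near the middle of each list. Its ranks were 7075 and 4858 for GLK1 and 10963 and 7232 for GLK2. The strongest summit moved between 83 bp upstream and 91 bp inside the gene, and the −log10 q was between 5.24 and 8.36. In GLK2 replicate 1, 3 further summits were called, with fold changes from 1.99 to 2.19. Within a library, LHCB4.1 was 16.2 and 12.1 times as high as LHCB4.3 for GLK1 and 11.1 and 9.01 times for GLK2. LHCB4.2 was 14.4 and 9.9995 times as high for GLK1 and 10.3 and 10.8 times for GLK2. The copies were therefore separated in every library by more than the spread between replicates.

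LHCB5, on chromosome 4 (6408007 to 6409849, plus strand), encodes CP26. Its fold changes were 38.1 and 36.5 for GLK1 and 28.5 and 32.3 for GLK2. The ratio of the TF means was the smallest among the 5 strongly bound genes. The ranks, 76 and 64 for GLK1 and 66 and 48 for GLK2, overlapped. The summits lay between 10 bp upstream and 31 bp inside. A weak distal summit recurred 1465 to 1475 bp upstream in GLK1 replicate 1 (2.44), GLK2 replicate 1 (2.24) and GLK2 replicate 2 (3.23).

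LHCB7, on chromosome 1 (28728998 to 28730851, plus strand), had no summit in either GLK1 library. GLK2 replicate 1 had 2 summits, 1088 and 671 bp upstream (1.77 and 1.84), and GLK2 replicate 2 had 1 summit 1008 bp upstream (1.66). These were at the bottom of their lists, at ranks from 21485 to 22235 and with a −log10 q between 1.51 and 1.94. The strongest summit of each replicate also lies in the windows of the upstream gene CP12-3, 121 bp inside it and 216 bp upstream of it, and of AT1G76550, a gene of the phosphofructokinase family, 1216 and 879 bp upstream. No summit was called near the LHCB7 start itself, which is shown because it holds a G-box, in capitals, that begins 19 bp upstream.
LHCB7 (chr1:28728969-28728998, plus strand): aatatcattaCACGTGgccagatccataac
A G-box was found in the 150 bp around the start of 4.34% of all genes. That no summit was called says only that none passed the threshold of the single-library calls at the depth of these libraries.

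**Figure D2:**
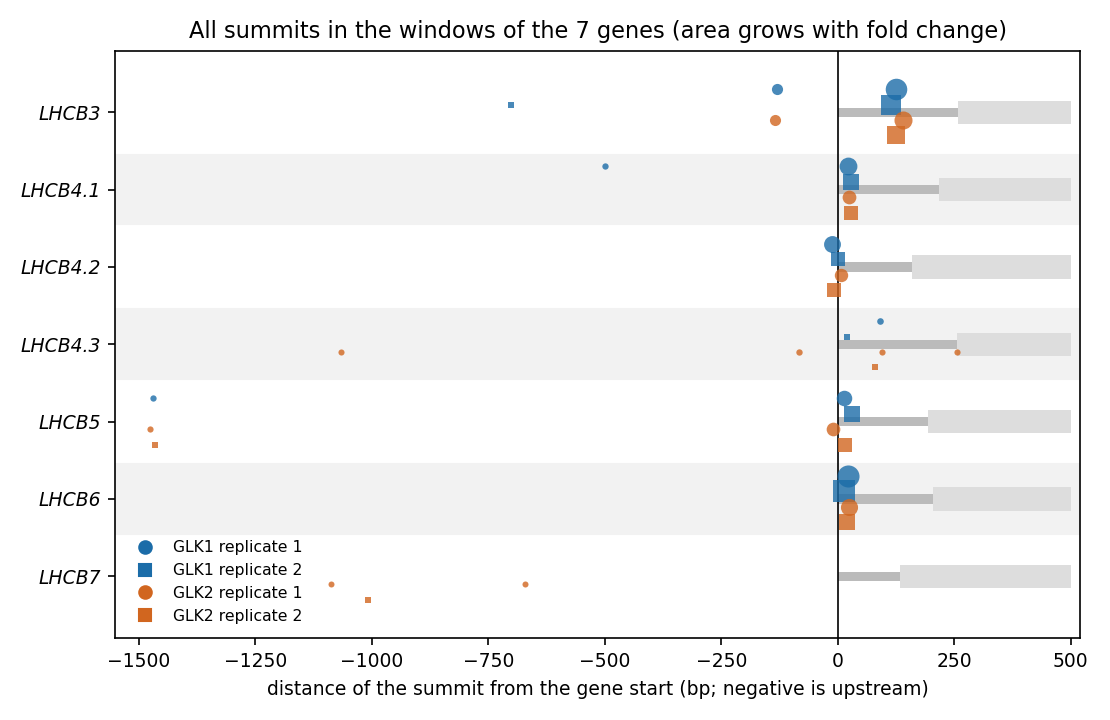
Position of every summit in the 7 windows, in bp from the gene start, in each library (colour and marker as labelled, with an area that grows with the fold change). Thin grey bars run from the gene start to the start codon and thick grey bars onward to 500 bp. The large symbols lie between 12 bp upstream and 140 bp inside the gene.

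The positions of the strong summits recurred closely. The 4 strongest summits of a gene spanned 26 bp in LHCB3, 6 bp in LHCB4.1, 20 bp in LHCB4.2, 41 bp in LHCB5 and 12 bp in LHCB6, against 174 bp in LHCB4.3. Over all 6313 genes with a summit in all 4 libraries, the median span was 95 bp, and over the 128 genes in the top 1% of all lists it was 15 bp. LHCB4.1 and LHCB6 were below the latter median and LHCB3, LHCB4.2 and LHCB5 above it. All 4 highest summits of all 5 genes fell between 15 bp upstream and 150 bp inside, which held for 41 of the 128 genes (32.0%) and for 527 of the 6313 (8.35%). The limits of that range were set after the positions were seen. The mean position of the 4 summits, with negative values upstream, had a median of −48.8 bp over the 128 genes and −247.8 bp over the 6313.

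The order of the levels, by the geometric mean of the 4 fold changes, was LHCB6 (60.4), LHCB3 (58.8), LHCB4.1 (35.3), LHCB4.2 (33.7), LHCB5 (33.6) and LHCB4.3 (2.99). LHCB6 was above LHCB3 in both GLK1 libraries and below it in both GLK2 libraries, so the order of this pair went with the TF. Their replicate ranges overlapped for both TFs. LHCB3 was above LHCB4.1 in all 4, and the replicate ranges did not overlap for either TF. LHCB4.1, LHCB4.2 and LHCB5 overlapped in at least one TF. LHCB5 was above LHCB4.3 in all 4, again without overlap. Among the 6313 genes, LHCB6 and LHCB3 took places 24 and 26, LHCB4.1, LHCB4.2 and LHCB5 places 67, 70 and 71, and LHCB4.3 place 4277.

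The full motif divided the members differently from the fold changes. Only LHCB4.1 and LHCB6 had the full motif in the 150 bp window of the strongest summit in all 4 libraries, that is 2 of 6 members, against 17.7% of the 6313 genes. LHCB5 had it in 3 of the 4 windows and LHCB4.3 in 2. LHCB3 and LHCB4.2 had it in none, and none within 300 bp of the start on either side, although they ranked within the first 75 of every list. In single lists, between 26.1% and 28.3% of all summit windows held the full motif, and between 61.9% and 66.4% of those in the top 1%. It was found in 24.0% of windows of that length centred on the start of every gene. With GATT and 2 pyrimidines alone, the 5 strongly bound members all had a match in all 4 windows, against 29.7% of the 6313 genes and 76.9% to 78.4% of the top 1% windows of single lists. At least 1 window held it in 66.8% of the 6313 genes. It was in 43.1% to 45.6% of all summit windows of single lists and 42.9% of windows centred on gene starts. LHCB4.3 had it only in GLK1 replicate 2 and GLK2 replicate 1. A match in all 4 windows is harder to reach where summits lie apart, as in LHCB4.3 (174 bp). No strongest summit window of a member held a G-box, against 22.7% of the 6313 genes with one in at least 1 window and 9.84% with one in all 4, and 25.3% to 35.3% of the top 1% windows. GATAA, a word found in many light-regulated promoters, was in all 4 windows of LHCB4.1, LHCB4.2, LHCB5 and LHCB6, against 23.1% of the 6313 genes and 56.8% to 62.9% of the top 1% windows. CCAATC, which reads GATTGG on the other strand and was searched after the sequences had been seen, was in all 4 windows of LHCB3, LHCB4.1 and LHCB5, against 5.88% of the 6313 genes and 27.6% to 33.1% of the top 1% windows. LHCB5 has 3 copies of it, which begin 5 bp upstream and 25 and 67 bp inside. These matches are descriptions of the letters and not of where a protein sits.

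GLK1 and GLK2 were then compared in strength. In all 6 members with a summit in every library, both GLK1 fold changes were above both GLK2 fold changes, though in LHCB4.2 the nearest values were 32.21 and 32.09. Of the 6313 genes, 26.7% had both GLK1 values above both GLK2 values. The mean of the GLK1 replicates was 1.72 times that of GLK2 in LHCB6, 1.62 times in LHCB4.1, 1.398 times in LHCB3, 1.32 times in LHCB4.2, 1.23 times in LHCB5 and 1.14 times in LHCB4.3. Means and SDs (n = 2) were 79.3 ± 3.58 for GLK1 and 46.1 ± 1.63 for GLK2 in LHCB6. They were 69.8 ± 11.1 and 49.9 ± 4.35 in LHCB3. In LHCB4.1 they were 45.2 ± 8.95 and 27.9 ± 1.53. In LHCB5 they were 37.31 ± 1.08 and 30.39 ± 2.64, and in LHCB4.2 they were 39.01 ± 9.62 and 29.6 ± 3.52. The gap was wider than the replicate spread in LHCB6, LHCB3, LHCB4.1, LHCB5 and LHCB4.3, but not in LHCB4.2.

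In a limma fit over the 6313 genes, with each list centred on its median, LHCB6, LHCB4.1, LHCB3 and LHCB4.2 were lower for GLK2 at an adjusted p of 0.05 or less. The call was made in that direction for 10.7% of genes, and for 4.99% in the other. GLK2 minus GLK1, on the log2 fold change scale, was −0.80 in LHCB6 (95% interval −0.98 to −0.61, limma adjusted p = 2.8e-07) and −0.70 in LHCB4.1 (−0.92 to −0.48, limma adjusted p = 2.1e-05). It was −0.49 in LHCB3 (−0.68 to −0.30, limma adjusted p = 0.00037) and −0.40 in LHCB4.2 (−0.64 to −0.15, limma adjusted p = 0.024). LHCB5 did not pass, at −0.31 (−0.54 to −0.08, limma adjusted p = 0.058), nor did LHCB4.3, at −0.21 (−0.63 to 0.21, limma adjusted p = 0.55). For 2 replicates against 2, an exact permutation test of a single gene cannot give a two-sided p below 0.333.

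**Figure D3:**
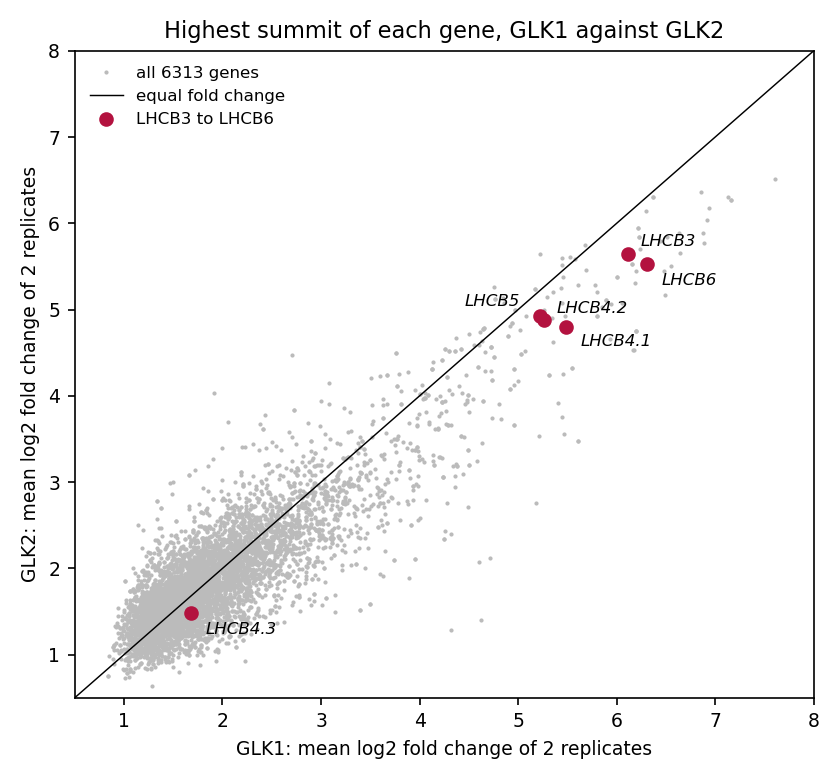
Mean log2 fold change of 2 replicates at the highest summit of each of 6313 genes, GLK1 on the x axis and GLK2 on the y axis, with LHCB3 to LHCB6 in red. The 5 strongly bound members and LHCB4.3 lie below the line of equal fold change. Of the 64 genes above the 99th percentile of strength, 48 were called lower for GLK2 and 1 higher.

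The gap between the TFs was found among the stronger genes of the whole set. The median of GLK2 minus GLK1 was −0.01 in the 1579 weakest genes, 0.02 and 0.01 in the next 2 bins up to the 75th percentile, −0.14 between the 75th and 95th percentile, −0.33 between the 95th and 99th (252 genes, with LHCB4.1, LHCB4.2 and LHCB5) and −0.65 above the 99th (64 genes, with LHCB3 and LHCB6). Of those 64 genes, 48 were called lower for GLK2 and 1 higher. When the 4 lists were instead given the same distribution of values by quantile normalization, no member passed. LHCB6 was then at −0.14 (limma adjusted p = 0.24) and LHCB4.1 at −0.26 (limma adjusted p = 0.065). LHCB3, LHCB4.2 and LHCB5 turned to 0.16, 0.09 and 0.20, with limma adjusted p of 0.15, 0.66 and 0.20. Under this scaling 7.54% of genes were called higher for GLK1 and 7.25% for GLK2, and the share of calls higher for GLK2 went from 31.8% to 49.0%. With ranks in place of fold changes, LHCB3 was called in the opposite direction, higher for GLK2 by 0.46 in log2 rank (limma adjusted p = 0.026), and no other member passed. The direction of the difference therefore held under every scaling for LHCB6, LHCB4.1 and LHCB4.3, none of which passed with quantiles or ranks, and depended on the scaling for LHCB3, LHCB4.2 and LHCB5.

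**Figure D4:**
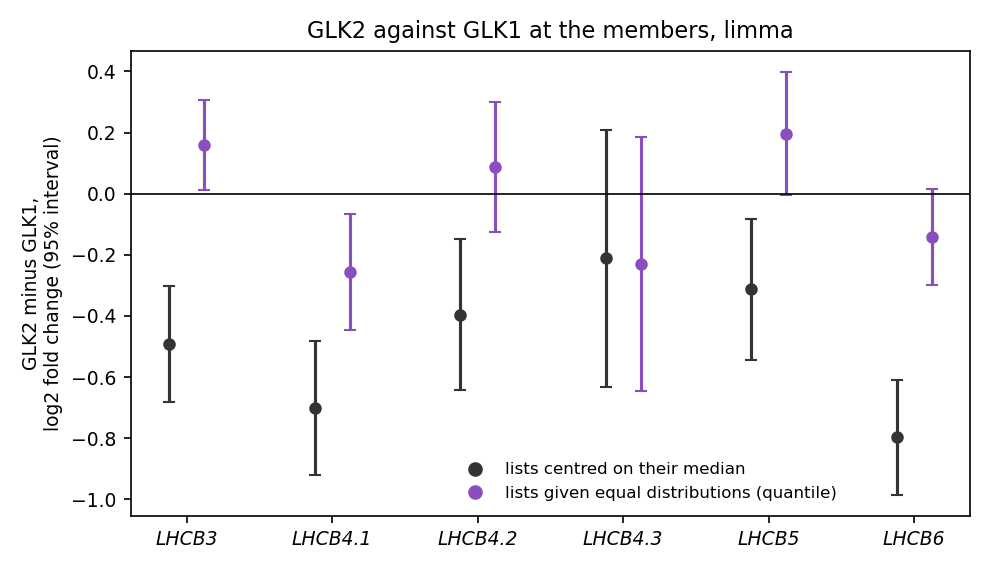
GLK2 minus GLK1 in log2 fold change for the 6 members with a summit in all 4 libraries, with 95% intervals from limma, after centring on the list medians (black) and after quantile normalization (purple). All 6 black points are below 0, from −0.80 to −0.21, whereas 3 of the purple points are above it.

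The other antenna genes give the setting of these values. All 8 LHCB1 and LHCB2 genes had a summit in all 4 libraries and in the top 1% of each, with LHCB1.3 the highest (geometric mean 133.4) and LHCB1.2 the lowest (24.4). LHCB1.4 and LHCB1.5 share one summit. Of the 6 LHCA genes of the photosystem I antenna, 4 were in the top 1%, from LHCA4 (94.2) to LHCA1 (42.7), and LHCA5 and LHCA6 lacked a summit in at least 1 library. The median over genes with a summit in all 4 libraries was 34.5 for LHCB3 to LHCB6, 51.6 for LHCB1 and LHCB2, 45.3 for LHCA and 3.45 for all genes. Apart from LHCB4.3 and LHCB7, the members lay within the range of the LHCB1 and LHCB2 genes, and the LHCA list likewise had a pair of weak genes. In the median-centred limma fit, 4 of 6 members, 6 of 8 LHCB1 and LHCB2 and 1 of 4 LHCA genes were lower for GLK2. That call was made for 10.7% of all genes. By strength, it was made for 119 of the 252 genes between the 95th and 99th percentile and 48 of the 64 above the 99th. The lists had median differences of −0.44, −0.65 and −0.01 in that order, against −0.02 over all genes. No gene of these lists passed in the other direction, which 4.99% of all genes did. LHCB1.2, LHCA2 and LHCA3 had positive differences all the same (0.21, 0.06 and 0.14). Whether the lists differ was not tested.

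**Figure D5:**
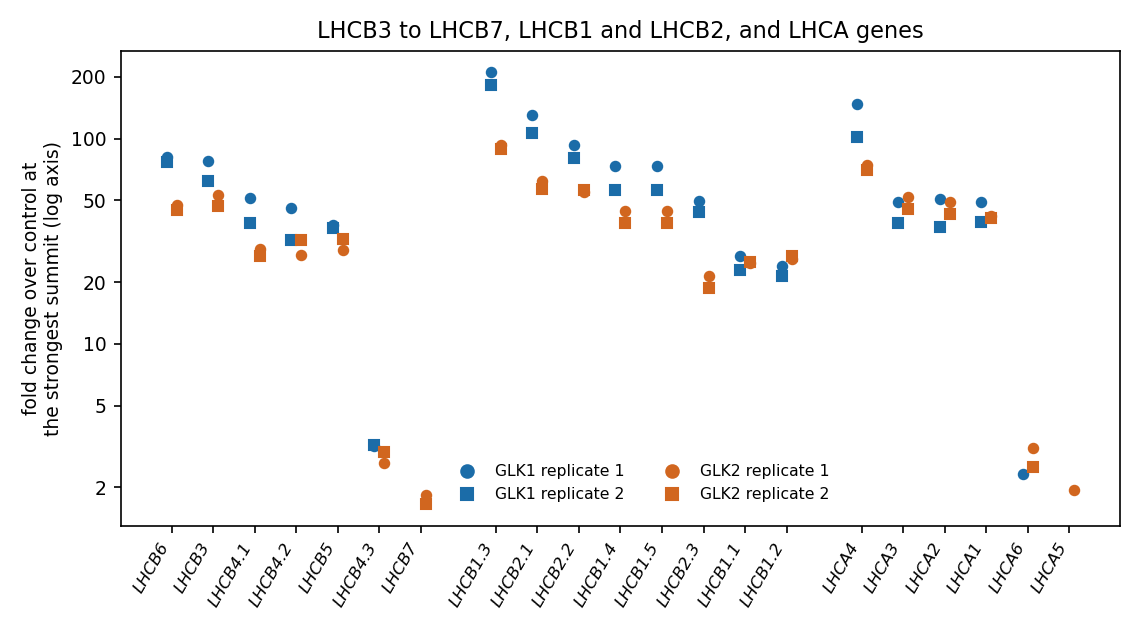
Fold change over the control at the strongest summit (log axis) of LHCB3 to LHCB7, LHCB1 and LHCB2, and LHCA genes in the 4 libraries, each list sorted by its mean. The strongly bound members lie at 26.8 or more, in the range of the main antenna genes, and LHCB4.3, LHCB7, LHCA5 and LHCA6 lie below 4.

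Most genes related to the antenna but outside the LHCA and LHCB lists were not in the top 1% of all lists. Over all 27444 genes, 23.0% had a summit in all 4 libraries, 0.466% were in the top 1% of all lists and 14396 had no summit in any library. Of 7 LHC-like genes, which include the photoprotective PSBS and the early light-induced ELIPs, 3 had a summit in all 4 libraries, none was in the top 1% of all lists, and PSBS and LIL3.1 had no summit at all. Of 8 genes for making, inserting or phosphorylating antenna proteins, 6 had a summit in all 4 and 2 were in the top 1%. These were CAO, the chlorophyll b synthesis enzyme (43.8 and 43.5 for GLK1, 33.1 and 34.3 for GLK2), and SRP43, which carries LHC proteins to the thylakoid (27.6 and 21.7 for GLK1, 26.1 and 27.3 for GLK2). Both were named after their values were seen. Over genes with a summit in all 4 libraries, the median geometric mean was 6.03 for making, inserting or phosphorylating antenna proteins. It was 3.42 for the LHC-like genes and 3.45 for all genes.

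Outside these lists, the gene with the 4 fold changes most like those of each member was found by the Euclidean distance of the log2 values over the 4 libraries. It was GUN5, the H subunit of magnesium chelatase, for LHCB3 (distance 0.20, with 77.9 and 65.1 for GLK1 and 47.1 and 44.9 for GLK2). It was HEMA1, the glutamyl-tRNA reductase of tetrapyrrole synthesis, for LHCB6 (distance 0.22, with 75.5 and 71.0 and 46.9 and 40.5). PSY, phytoene synthase, was closest to LHCB4.1 (0.21) and CLA1, an enzyme of plastid isoprenoid synthesis, to LHCB5 (0.27). AT2G42220, a gene of the rhodanese family, was closest to LHCB4.2 (0.34), and AT3G25600, a gene of the EF-hand family, to LHCB4.3 (0.11). With only 4 libraries, a distance of this kind orders genes by level more than by pattern.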

How the data were processed

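The peak lists of 4 Arabidopsis leaf ChIP-seq libraries were analysed (2 TFs, 2 replicates each). According to the methods and labels, the authors trimmed the reads, mapped them to TAIR10 with Bowtie2 2.3.2, filtered them with SAMtools and called summits for each library alone with MACS2 2.2.1. For its target genes, the paper then kept regions that passed a cut-off of reproducibility between replicates and one of fold change. The lists used here are those of the single libraries and were not cut in that way. The control is not identified, and depth is not in the lists. The deposited columns used are the fold change over the control (a ratio), the −log10 q value, and the position of 150 bp windows centred on summits. Gene starts, UTRs and sequences come from the RefSeq annotation and genome TAIR10.1, whose chromosome lengths no summit exceeds.

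Each gene was given the highest summit in its window (1.5 kb upstream to 500 bp inside) in each list. GLK2 was compared with GLK1 by limma 3.58.1 (R 4.3.3) on log2 values centred on each list's median, over genes with a summit in all 4 libraries, with a variance trend and Benjamini-Hochberg adjustment at 0.05. The fit was run on simulated data in which the spreads were shuffled across genes, so its variance trend was not tested. Other values are descriptions. Named were all 7 members, the highest and lowest LHCB1, LHCB2 and LHCA genes, the closest gene by distance, other genes whose window holds a member's strongest summit, and GLK1 and GLK2. The members are all genes of the family names LHCB3 to LHCB7, and this family and the lists were chosen with earlier results of these data known. The alternatives were other windows, a filter, other scalings, a replicate block, other motifs and leaving out each replicate. Tables and figures used Python 3.11.15 with pandas 2.3.3 and matplotlib 3.10.9. Libraries of other species were not used here.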

Additional observations from a re-analysis of the deposited data

How the results depend on the processing

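With summits taken only from the 1.5 kb upstream, 0 members had a summit in all 4 libraries, against 4720 of the 27444 genes. Most strongest summits of the members lie inside the gene. In that window 600 genes differed between GLK1 and GLK2 in place of 992. Requiring at least 5 for both the fold change and the −log10 q left 5 members and called 363 of 817 genes, of which 49.9% were higher for GLK2. In that limma fit LHCB3 (−0.22, adjusted p = 0.0502) and LHCB4.2 (−0.12, adjusted p = 0.404) missed the threshold. Leaving out single replicates kept the count of members at 6 and gave 509 to 1025 differing genes. The count was 514 without GLK2 replicate 1 and 509 without GLK2 replicate 2. With 300 bp windows, 4 members had the full motif in all windows, against 36.9% of the 6313 genes. Of the other motifs, GATT and 2 pyrimidines was in all 150 bp windows of 5 members, against 29.7% of genes. GGATTTT or GATTCC was in all of them in 0 members, against 6.88% of genes. The count for the full motif was 2 to 3 when a replicate was left out, 3 being the count without GLK2 replicate 1. Leaving out a window could only keep or raise that count. GLK2 minus GLK1 turned with quantile normalization to 0.16 in LHCB3, 0.086 in LHCB4.2 and 0.20 in LHCB5, and with ranks to 0.46, 0.17 and 0.31. The cause was not tested. The call for LHCB4.2 was lost without GLK1 replicate 1 (−0.25) and without GLK2 replicate 1 (−0.24), and that for LHCB3 without GLK2 replicate 2 (−0.44, limma adjusted p = 0.135). LHCB5 passed without GLK1 replicate 1 (−0.39). Both LHCB3 and LHCB4.2 also missed the threshold in limma fits without centring and without a variance trend, which LHCB6 and LHCB4.1 passed. Replicates with the same number did not pair (correlation of their deviations 0.04), and a fit with a replicate block called 1205 genes and gained LHCB5. LHCB5 also passed with summits within 150 bp in all 4 libraries (limma adjusted p = 0.0374) and with −log10 q as the signal (limma adjusted p = 0.0088). Of the alternative fits, 4 called LHCB5, 8 kept its sign without a call and 2 reversed its sign without a call. The upstream window lowered the GLK1 mean of LHCB3 to 10.01 and the GLK2 mean of LHCB5 to 15.9, and the summit nearest the start gave a GLK2 mean of 32.1 for LHCB3. Each of these means joins different sites of the replicates. The first joins 17.5 at 131 bp and 2.53 at 701 bp upstream. The second joins 28.5 at 10 bp and 3.23 at 1465 bp upstream. The third joins 17.3 at 134 bp upstream and 46.9 at 124 bp inside. By the summit names in the part of the study's target table at hand, 5 members were targets. The share of all genes in that table was not counted.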
